A study of Mus musculus with 24 samples.

Results

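The effect of OX40L and JAG1 given together was measured in regulatory CD4 T cells (Treg) of NZBWF1/j mice, which come from a cross of inbred strains and fall ill with a lupus-like disease. The 6 libraries were chosen by their labels, 3 from treated and 3 from control mice, out of 24 libraries in the series. Treated Treg cells came from female mice that were injected into the peritoneum with recombinant mouse OX40L at 2 mg/kg and JAG1 at 2 mg/kg, each once a week for 3 weeks, starting at 23 weeks of age. Control Treg cells came from female mice of the same strain and age that received PBS. Total RNA was depleted of ribosomal RNA and made into libraries with the CORALL kit. Cells of both groups were collected at week 26 and sorted as CD4+CXCR5-GITR+ cells, so the gene of GITR (Tnfrsf18) was part of the sort and the gate may hold activated conventional cells as well. All mice share the disease-prone background, and the ligands were given together, so neither a healthy strain nor a single ligand can be compared. Nothing in the labels says that the 3 libraries of a group came from separate mice, and the p-values therefore reflect only how these libraries vary, which may be technical.

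Treg cells hold back immune responses and are defined by the transcription factor Foxp3, with high surface levels of the IL-2 receptor alpha chain and of CTLA-4. OX40 is a costimulatory receptor of the tumour necrosis factor receptor family that Treg cells carry at rest, and its ligand engages TRAF adaptors and the NF-kB pathways. JAG1 binds Notch receptors, which are then cut so that their inner domain joins RBPJ and MAML proteins on target genes.

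The treated Treg libraries held 50.2, 53.8 and 38.2 M counts and the control Treg libraries 27.1, 27.4 and 28.03 M counts. Levels are given as CPM, counts scaled to a common library size. The labelled cell type was checked on Foxp3, which had 581, 564 and 503 CPM in treated Treg cells, against 483, 498 and 439 CPM in control Treg cells, while it stayed between 10.7 and 12.8 CPM in treated Tconv libraries and between 4.31 and 6.80 CPM in control Tconv libraries. Ms4a1, a defining gene of B cells, and those of myeloid cells (Lyz2 and Csf1r) averaged under 1 CPM in both groups. Of the 6 libraries, 2 stand apart. Control Treg 3 took 15.9% of its counts from Gm42418, AY036118 and Lars2, loci known to collect ribosomal RNA reads, against 0.228, 0.269 and 1.17% in treated Treg 1, 2 and 3 and 0.760 and 0.399% in control Treg 1 and 2. Treated Treg 3 held 17.8 CPM of the podocyte gene Nphs1, which marks kidney, against 0.0954 and 0.0355 CPM in treated Treg 1 and 2 and at most 0.617 CPM in the control Treg libraries. Counts without each of these libraries stand beside the results.

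Many genes of cell division and heat shock and some integrins were higher in treated than in control Treg cells, and most messages of the mitochondrial genome and some genes of naive cells lower, while Foxp3 itself did not pass the test. Among 18789 tested genes, 972 (5.17%) were higher in treated Treg cells and 668 (3.56%) were lower, 8.73% in either direction, at an adjusted p under 0.05 in edgeR's quasi-likelihood test over all 24 libraries. Of these, 508 higher and 197 lower genes differed by more than 2-fold. The shares of 5.17% and 3.56% over all tested genes are the background of the list counts below. The CPM values of the groups did not overlap for 8717 genes (46.4%), and 3548 genes had an unadjusted p under 0.05. Fitted on the 6 Treg libraries alone, whose spread was smaller, the test called 3148 genes (20.8%) higher and 3042 (20.1%) lower of 15126. Scaling without mitochondrial, haemoglobin, immunoglobulin and receptor-segment genes gave 1218 higher and 490 lower genes, so that 71.3% of calls were higher instead of 59.3%, with the median of all genes moved by 0.09 on the log2 scale. Leaving out 1 library gave 1068, 1062 or 1093 calls without treated Treg 1, 2 or 3, and 1119, 1091 or 1110 without control Treg 1, 2 or 3, in place of 1640.

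**Figure D1:**
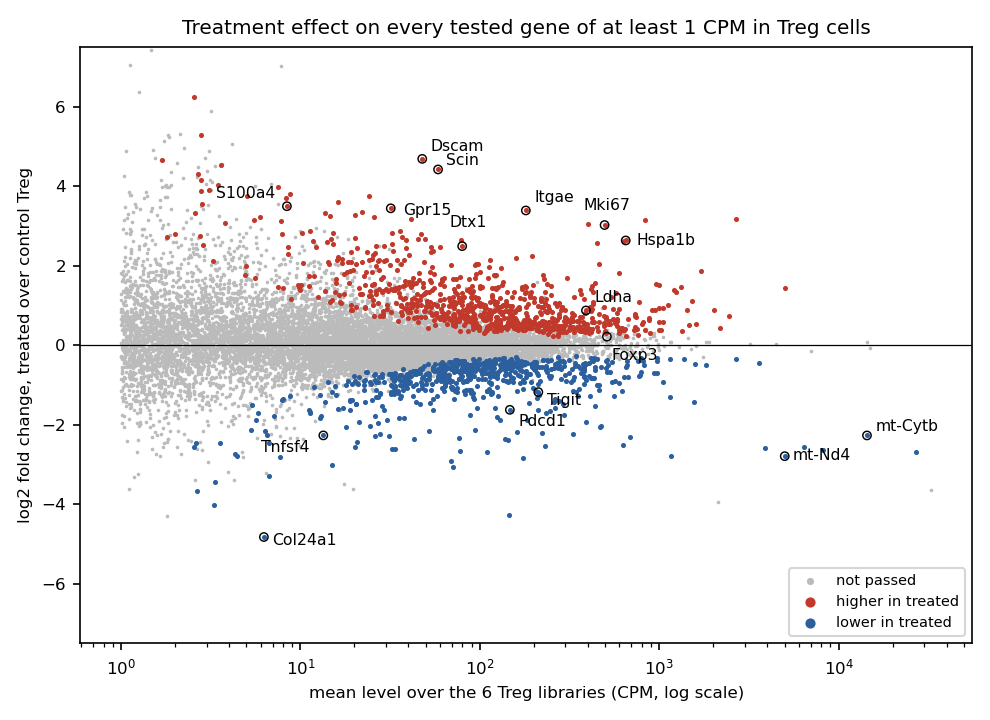
Each point is 1 of 12809 tested genes with a mean of at least 1 CPM over the 6 Treg libraries. The x axis (log scale) gives that mean in CPM and the y axis the log2 fold change of treated over control Treg cells, with genes past the test in red (higher) or blue (lower). The mitochondrial messages mt-Nd4 and mt-Cytb lie low at the right, Itgae, Dscam and Scin lie high, and 41 genes lie beyond the y axis.

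The genes that define Treg cells moved in both directions. Of the 25 tested genes of a Treg identity list, 6 higher and 3 lower were called, with a median log2 fold change of 0.15 against 0.09 over all tested genes. Foxp3 did not pass (log2 fold change 0.21, SE 0.18, adjusted p = 0.618), and the fit of the 6 Treg libraries gave it an adjusted p of 0.0336. Il2ra, the alpha chain of the IL-2 receptor, had 218, 211 and 218 CPM in treated Treg cells, against 104, 105 and 129 CPM in control Treg cells (log2 fold change 0.93, SE 0.17, adjusted p = 0.000898). Ikzf2, which encodes the transcription factor Helios, had 1198, 1171 and 1185 CPM in treated Treg cells, against 622, 661 and 638 CPM in control Treg cells (log2 fold change 0.89, SE 0.12, adjusted p = 1.37e-05). The lowest treated library exceeded the highest control library for both genes by a wide margin. Ctla4, which encodes the inhibitory receptor CTLA-4, averaged 629.7 ± 17.1 CPM in treated and 579 ± 7.88 CPM in control Treg cells (SD, n = 3 each) and did not pass (adjusted p = 0.508). Izumo1r, the folate receptor 4 of Treg cells, and Capg, an actin capping protein, were higher, with log2 fold changes of 0.996 and 0.89 (adjusted p = 0.000216 and 0.00151). Nrp1, a surface protein of thymus-derived Treg cells, had 312, 312 and 315 CPM in treated Treg cells, against 107, 104 and 101 CPM in control Treg cells, groups that do not overlap, and missed the threshold (adjusted p = 0.0766). In bulk RNA a change in the share of cells of a type and a change in RNA per cell cannot be told apart.

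Several costimulatory and co-inhibitory receptors of Treg cells were lower and others higher. Tigit, an inhibitory receptor of effector Treg cells, had 134, 128 and 127 CPM in treated Treg cells, against 302, 295 and 285 CPM in control Treg cells (log2 fold change -1.18, SE 0.13, adjusted p = 1.56e-06). Tnfrsf9, which encodes 4-1BB, had 304, 309.7 and 299.8 CPM in treated Treg cells, against 551, 526 and 532 CPM in control Treg cells (log2 fold change -0.82, SE 0.12, adjusted p = 7.59e-05). Tnfrsf18, the gene of GITR that was used for sorting, had 140.2, 146 and 126 CPM in treated Treg cells, against 235, 242 and 204 CPM in control Treg cells (log2 fold change -0.72, SE 0.14, adjusted p = 0.000947). For each of these 3 receptors all treated values lay below all control values. Pdcd1, which encodes PD-1, averaged 72.0 ± 6.24 CPM in treated and 222 ± 20.1 CPM in control Treg cells (SD, n = 3 each; log2 fold change -1.62, adjusted p = 3.08e-07). Among 18 tested co-inhibitory receptors 3 higher and 2 lower were called (16.7% and 11.1%, against 5.17% and 3.56% of all genes). Btla, the receptor of HVEM, and Cd96, a partner of CD155, were higher with log2 fold changes of 1.65 and 1.48 (adjusted p = 9.14e-08 and 2.45e-05), as was Vsir, which encodes VISTA (log2 fold change 0.54, adjusted p = 0.000714). Lag3, a ligand of MHC class II, averaged 32.5 ± 1.88 CPM in treated and 31.0 ± 1.14 CPM in control Treg cells (SD, n = 3 each) and did not pass (adjusted p = 0.93).

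The effector Treg program moved in both directions. Of its 34 tested members, 10 higher and 6 lower were called (29.4% and 17.6%, against 5.17% and 3.56% of all genes). The median log2 fold change was 0.43. Without treated Treg 3 the counts were 7 and 3, and without control Treg 3 they were 7 and 6. Itgae, the CD103 integrin chain that binds E-cadherin on epithelia, had 345, 342 and 302 CPM in treated Treg cells, against 35.1, 32.4 and 26.9 CPM in control Treg cells (log2 fold change 3.39, SE 0.59, adjusted p = 0.000484). Il1r2, the decoy receptor of IL-1, had 135, 140.2 and 132 CPM in treated Treg cells, against 19.5, 23.6 and 21.7 CPM in control Treg cells (log2 fold change 2.65, SE 0.50, adjusted p = 0.0011). Gpr15, a homing receptor for the large intestine, had 59.0, 60.8 and 55.4 CPM in treated Treg cells, against 7.84, 4.58 and 3.68 CPM in control Treg cells (log2 fold change 3.44, SE 0.95, adjusted p = 0.0235). All 3 genes were several-fold higher in every treated library. The call of Gpr15 was lost with any single library left out (adjusted p between 0.055 and 0.117). Batf, an AP-1 factor required for effector Treg cells, rose by a log2 fold change of 1.123 (adjusted p = 7.66e-06), and Areg, the repair factor amphiregulin, by 1.21 (adjusted p = 0.00253). Il10ra, a chain of the IL-10 receptor, averaged 107 ± 8.95 CPM in treated and 47.0 ± 9.36 CPM in control Treg cells (SD, n = 3 each; log2 fold change 1.18, adjusted p = 0.00013). Tff1 was also called, with a mean of 0.386 CPM in treated libraries and no read in the control libraries. Lower members were Tigit, Tnfrsf9, Rora, Ikzf3, Nfil3 and Il10. The call of Ikzf3, which encodes Aiolos, was lost without treated 3 (adjusted p = 0.0644) or control 1 (adjusted p = 0.0605), and that of Nfil3, a basic leucine zipper factor, without treated 3 (adjusted p = 0.0715) or control 2 (adjusted p = 0.0503). Rora, a nuclear receptor of tissue Treg cells, averaged 547 ± 15.4 CPM in treated and 775 ± 27.4 CPM in control Treg cells (SD, n = 3 each; log2 fold change -0.50, adjusted p = 0.000389). Prdm1, Maf, Gata3, Klrg1 and Ccr8 did not pass, with log2 fold changes of 0.33, 0.04, 0.26, 0.82 and -0.59.

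Il10, the main suppressive cytokine of effector Treg cells, had 59.2, 55.6 and 54.6 CPM in treated Treg cells, against 108, 101 and 91.9 CPM in control Treg cells (log2 fold change -0.83, SE 0.23, adjusted p = 0.022). Its treated and control values did not overlap, and its call was lost without treated 1 (adjusted p = 0.0654), treated 2 (adjusted p = 0.0851), treated 3 (adjusted p = 0.0895), control 1 (adjusted p = 0.0944) or control 2 (adjusted p = 0.0715). Among 20 tested suppressive mediators 1 higher and 2 lower were called: Areg was higher, and Tigit and Il10 were lower. The lower count was 1 without treated Treg 1, 2 or 3 and without control Treg 1 or 2. Tgfb1, the suppressive cytokine TGF-beta 1, averaged 85.0 ± 2.68 CPM in treated and 101 ± 1.43 CPM in control Treg cells (SD, n = 3 each) and did not pass (log2 fold change -0.26, SE 0.14, adjusted p = 0.345). Nt5e, the ectoenzyme CD73, averaged 177 ± 6.68 CPM in treated and 182 ± 9.37 CPM in control Treg cells (SD, n = 3 each) and did not pass either (log2 fold change -0.04, SE 0.11, adjusted p = 0.915). Lrrc32, which encodes the TGF-beta carrier GARP, had 139, 145 and 127 CPM in treated Treg cells, against 238, 263 and 255 CPM in control Treg cells without overlap and did not pass (adjusted p = 0.0902). Ebi3, a subunit of IL-35, Gzmb, a protease of killing granules, and Entpd1, the ectoenzyme CD39, had log2 fold changes of 2.12, 1.82 and 1.58 and did not pass (adjusted p = 0.262, 0.117 and 0.278). In the fit of the 6 Treg libraries these 3 genes had adjusted p-values of 1.16e-05, 1.1e-05 and 2.6e-06.

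**Figure D2:**
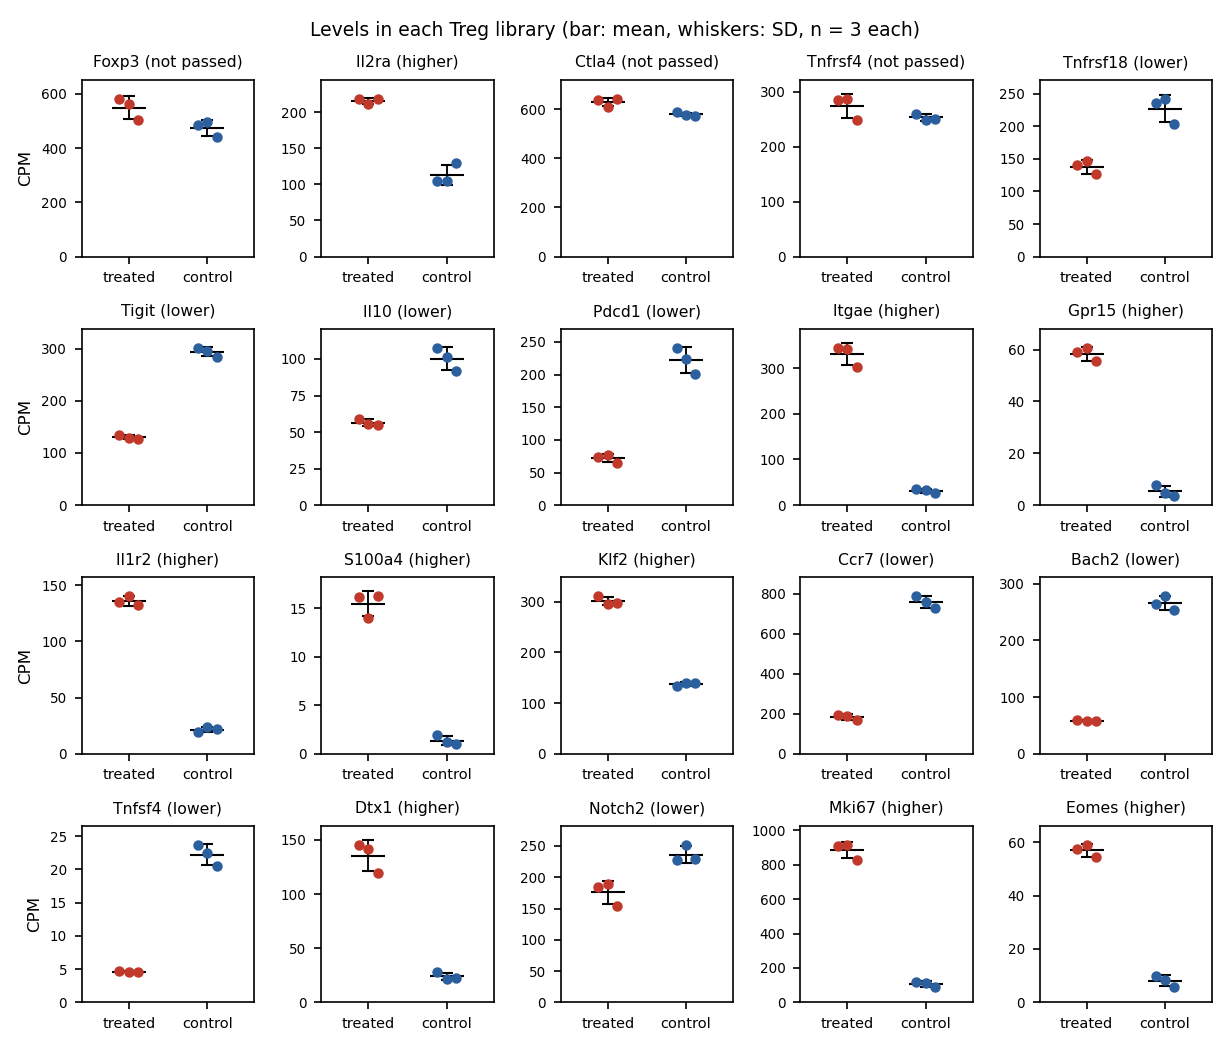
Levels in CPM (y axis, from 0) of 20 genes in the 3 treated (red) and 3 control (blue) Treg libraries, with the mean as a bar and the SD as whiskers. The word in each title says whether the gene passed the test. Foxp3, Ctla4 and Tnfrsf4 did not pass, while the treated values of Itgae, all between 302 and 345 CPM, lie far above the control values.

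Genes of naive and recirculating T cells were more often lower than higher. Of 22 tested members, 3 higher and 10 lower were called (13.6% and 45.5%, against 5.17% and 3.56% of all genes). The median log2 fold change was -0.49. The counts were 3 and 9 without treated Treg 3 and 2 and 9 without control Treg 3. Ccr7, the lymph node homing receptor, had 193, 189 and 167 CPM in treated Treg cells, against 788, 758 and 728 CPM in control Treg cells (log2 fold change -2.05, SE 0.11, adjusted p = 1.33e-11). Satb1, a chromatin organiser of thymic and naive T cells, had 189, 181.1 and 188 CPM in treated Treg cells, against 762, 779 and 758 CPM in control Treg cells (log2 fold change -2.04, SE 0.10, adjusted p = 2.33e-12). Bach2, a repressor that holds T cells in a resting state, had 60.5, 57.6 and 58.0 CPM in treated Treg cells, against 265, 278 and 254 CPM in control Treg cells (log2 fold change -2.18, SE 0.15, adjusted p = 1.3e-09). All 3 genes were between 3- and 5-fold lower, and every treated library was below every control library. Foxp1, Lef1 and Foxo1, transcription factors of quiescent T cells, fell by 1.27, 1.07 and 0.82 on the log2 scale (adjusted p = 6.89e-09, 0.000121 and 4.45e-05). S1pr1, the receptor for exit from lymphoid organs, averaged 245 ± 11.2 CPM in treated and 429 ± 0.849 CPM in control Treg cells (SD, n = 3 each; log2 fold change -0.81, adjusted p = 6.09e-05). Other members of the list did not follow. Klf2, a factor that drives S1pr1 in T cells, had 311, 295 and 298 CPM in treated Treg cells, against 133, 141 and 140.5 CPM in control Treg cells (log2 fold change 1.13, SE 0.12, adjusted p = 1.6e-06), and Id3, an inhibitor of E proteins, rose by a log2 fold change of 1.38 (adjusted p = 0.00421). Tcf7, which encodes the T cell factor TCF-1, and Il7r, the IL-7 receptor chain, had log2 fold changes of -0.18 and -0.12 and did not pass (adjusted p = 0.337 and 0.802).

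Some integrins and S100, annexin and galectin genes, which activated and tissue T cells express, were higher. Of 18 tested S100, annexin, galectin and related genes, 9 higher and 0 lower were called, with a median log2 fold change of 0.95; without treated Treg 3 and without control Treg 3 the higher count was 7 each. Vim, the intermediate filament vimentin, had 962, 976 and 872 CPM in treated Treg cells, against 283, 274 and 235 CPM in control Treg cells (log2 fold change 1.83, SE 0.14, adjusted p = 1.03e-08). Lgals1, which encodes galectin-1, had 193, 206 and 172 CPM in treated Treg cells, against 57.0, 59.1 and 53.0 CPM in control Treg cells (log2 fold change 1.76, SE 0.28, adjusted p = 0.000187). S100a4, a calcium-binding protein of effector cells, had 16.1, 14.01 and 16.2 CPM in treated Treg cells, against 1.94, 1.16 and 0.992 CPM in control Treg cells (log2 fold change 3.50, SE 0.96, adjusted p = 0.0236), and its call was lost with any single library left out (adjusted p between 0.0526 and 0.112). Of 17 integrin genes 7 higher and 0 lower were called, with 6 higher without treated Treg 3 and 6 without control Treg 3. Itga4, the alpha-4 chain used for entry into inflamed tissue and gut, had 1452, 1392 and 1442 CPM in treated Treg cells, against 472, 492 and 499 CPM in control Treg cells (log2 fold change 1.55, SE 0.11, adjusted p = 1.36e-09). Itgb2 and Itgal, the chains of LFA-1, rose by log2 fold changes of 1.34 and 0.66 (adjusted p = 1.37e-06 and 0.000102). At an unadjusted p under 0.05 and in DESeq2 no gene of either list was lower, and limma voom called 1 integrin lower. The fit of the 6 Treg libraries also called 1 integrin lower, or 3 with a replicate block. Itgax was among the calls with 0.342 CPM in treated libraries and no read in control libraries.

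Of 25 tested chemokine and homing receptors, 5 higher and 4 lower were called. Cxcr5, the receptor for B cell follicles by whose absence the cells were sorted, had 41.0, 46.1 and 35.6 CPM in treated Treg cells, against 14.9, 18.05 and 15.8 CPM in control Treg cells (log2 fold change 1.33, SE 0.23, adjusted p = 0.000465). Cxcr4, the receptor for CXCL12, had 285, 285 and 272 CPM in treated Treg cells, against 472, 476 and 491 CPM in control Treg cells (log2 fold change -0.77, SE 0.12, adjusted p = 8.46e-05), and Selplg, the P-selectin ligand, rose by a log2 fold change of 0.82 (adjusted p = 0.00143). The counts were 4 higher and 3 lower without treated Treg 3.

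**Figure D3:**
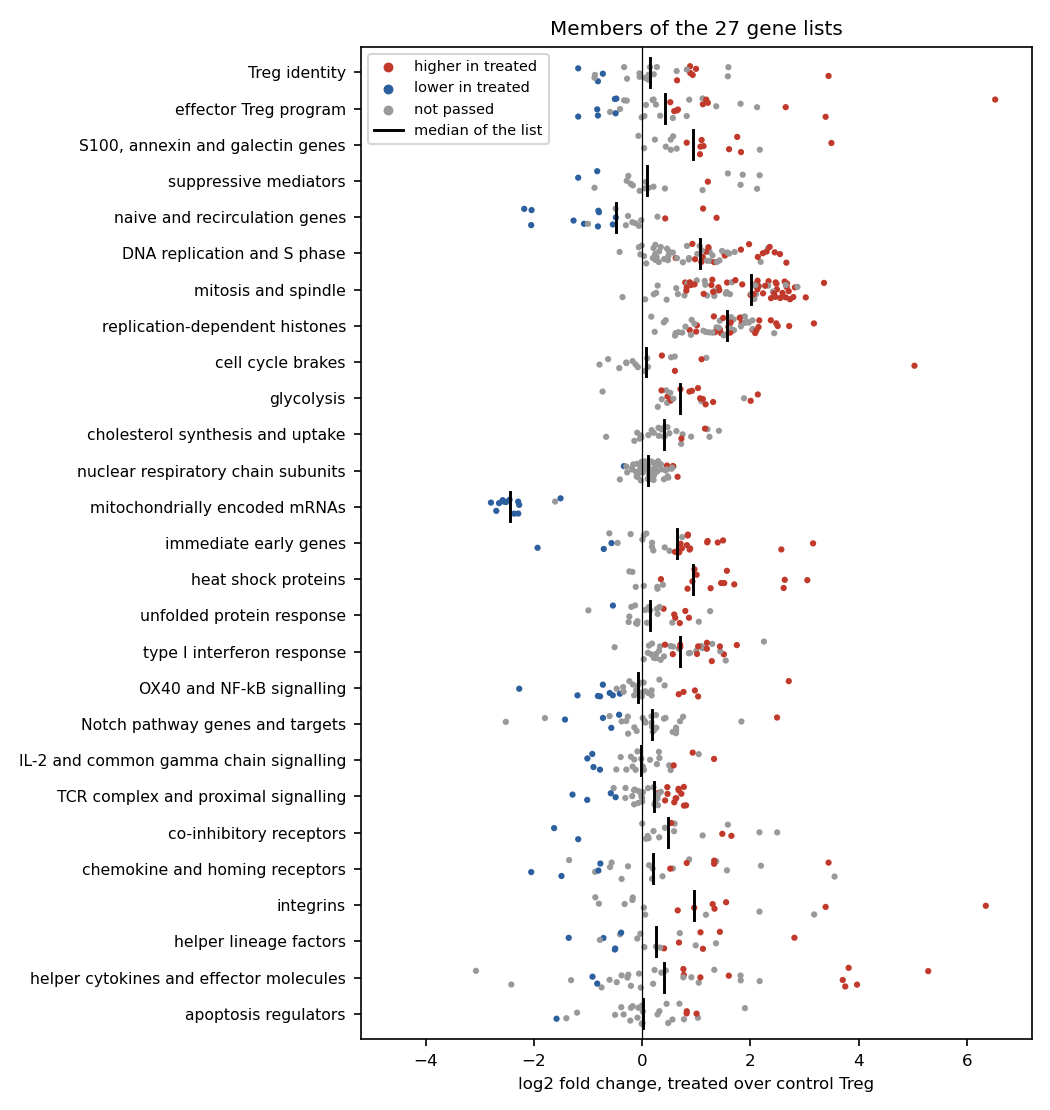
Each point is a tested member of 1 of the 27 gene lists (rows), placed by its log2 fold change of treated over control Treg cells. Red and blue mark members past the test and black bars the median of a list, which is lowest for the mitochondrially encoded mRNAs (-2.45) and highest for mitosis and spindle genes (2.01). A single member of a list lies beyond the axis.

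The OX40 receptor itself did not pass the test, while its ligand was lower. Tnfrsf4, which encodes OX40, had 286, 287 and 249 CPM in treated Treg cells, against 261, 249.7 and 251 CPM in control Treg cells (log2 fold change 0.11, SE 0.13, adjusted p = 0.763), and the groups overlapped. Tnfsf4, which encodes its ligand OX40L, had 4.69, 4.60 and 4.54 CPM in treated Treg cells, against 23.7, 22.5 and 20.5 CPM in control Treg cells (log2 fold change -2.27, SE 0.40, adjusted p = 0.00049), so each treated library was below each control library. Of 31 tested genes of OX40 and NF-kB signalling, 5 higher and 8 lower were called (16.1% and 25.8%, against 5.17% and 3.56% of all genes). The median log2 fold change was -0.08, and the counts were 4 and 7 without treated Treg 3. The lower genes hold the non-canonical branch: Map3k14, the kinase NIK at its head, had 57.3, 56.6 and 49.2 CPM in treated Treg cells, against 125, 141 and 107 CPM in control Treg cells (log2 fold change -1.19, SE 0.12, adjusted p = 7.32e-07). Nfkb2 and Relb, its transcription factors, fell by 0.60 and 0.78 on the log2 scale (adjusted p = 0.00143 and 0.00189). Nfkb1, of the canonical branch, fell by 0.41 (adjusted p = 0.0174), a call that was lost without treated 1 (adjusted p = 0.0566), treated 3 (adjusted p = 0.115), control 1 (adjusted p = 0.0699) or control 2 (adjusted p = 0.0797). Higher members were the IkB family genes Nfkbiz and Nfkbie, with log2 fold changes of 1.03 and 0.77 (adjusted p = 1.75e-06 and 0.000425), and the OX40 adaptor Traf5 (log2 fold change 0.97, adjusted p = 0.0419). The call of Traf5 was lost with any single library left out (adjusted p between 0.0627 and 0.195). The remaining higher members, Ccnd2 and Birc5, are a cyclin and a protein of dividing cells.

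Most Notch genes did not pass the test. Of 35 tested Notch pathway genes and targets 1 higher and 4 lower were called (2.86% and 11.4%), against 5.17% and 3.56% of all genes, and the lower count was 2 when any single library was left out. Dtx1, the E3 ligase Deltex1 and a Notch target in T cells, had 145, 142 and 119 CPM in treated Treg cells, against 27.7, 21.7 and 22.8 CPM in control Treg cells (log2 fold change 2.49, SE 0.62, adjusted p = 0.0122). Its lowest treated value was more than 4-fold above its highest control value, and its call was lost without control 2 (adjusted p = 0.0677) or control 3 (adjusted p = 0.0641). Its relatives Dtx4 and Dtx2 were lower, with log2 fold changes of -1.42 and -0.72 (adjusted p = 0.0057 and 0.0312). The calls of Dtx4 and Maml1 were lost without all libraries of the series that hold kidney transcripts (adjusted p = 0.0681 and 0.0758). Maml1, the coactivator of the Notch complex, averaged 77.7 ± 4.70 CPM in treated and 115 ± 4.003 CPM in control Treg cells (SD, n = 3 each; log2 fold change -0.57, adjusted p = 0.004), and Rbpj, its DNA-binding partner, 88.0 ± 1.88 CPM in treated and 87.3 ± 3.40 CPM in control Treg cells (SD, n = 3 each), which did not pass (log2 fold change 0.01, SE 0.11, adjusted p = 0.987). Among the receptors, Notch1 had 349.5, 345 and 308 CPM in treated Treg cells, against 254, 242 and 246 CPM in control Treg cells and narrowly missed the threshold (log2 fold change 0.43, SE 0.14, adjusted p = 0.0534). Notch2 had 184, 189 and 155 CPM in treated Treg cells, against 227, 252 and 229 CPM in control Treg cells (log2 fold change -0.42, SE 0.13, adjusted p = 0.0405), a call lost with any single library left out (adjusted p between 0.068 and 0.24) and under scaling without mitochondrial and receptor-segment genes (adjusted p = 0.0955). The call of Dtx2 was lost with any single library left out (adjusted p between 0.0605 and 0.164). Hes1, the common target in other tissues, was near the detection limit at 0.305, 0.124 and 0.893 CPM in treated Treg cells, against 0.110, 0.690 and 0 CPM in control Treg cells.

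Genes of the T cell receptor complex and its first signalling steps were more often higher than lower. Of 39 tested members 13 higher and 4 lower were called (33.3% and 10.3%, against 5.17% and 3.56% of all genes). The higher count was 14 without treated Treg 3 and 10 without control Treg 3. Cd3g, a CD3 chain, Lcp2, the adaptor SLP-76, Prkcq, protein kinase C theta, and Rasgrp1, an activator of Ras, rose by log2 fold changes of 0.62, 0.77, 0.77 and 0.81 (adjusted p = 0.00115, 4.4e-06, 1.11e-05 and 3.23e-05). Among the lower members Cblb, an E3 ligase that restrains receptor signals, had 326, 325 and 330.1 CPM in treated Treg cells, against 777, 811 and 803 CPM in control Treg cells (log2 fold change -1.28, SE 0.09, adjusted p = 3.01e-09). Downstream of IL-2 the direction was split as well, with 3 higher and 4 lower among 25 tested genes. Jak3, the kinase of the common gamma chain, had 293, 287 and 245 CPM in treated Treg cells, against 99.6, 119 and 110.2 CPM in control Treg cells (log2 fold change 1.33, SE 0.12, adjusted p = 4.26e-08), while Stat5a and Stat5b, the factors that carry the IL-2 signal, fell by 1.01 and 0.90 on the log2 scale (adjusted p = 1.99e-05 and 2.02e-06). Stat3 and the STAT target Pim1 fell by 0.78 and 0.92 (adjusted p = 1.89e-06 and 1.37e-05).

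Among 21 factors of helper T cell lineages 6 higher and 5 lower were called (28.6% and 23.8%, against 5.17% and 3.56% of all genes). Bcl6, the factor of follicular helper cells, had 32.4, 31.1 and 29.3 CPM in treated Treg cells, against 85.7, 81.1 and 70.6 CPM in control Treg cells (log2 fold change -1.35, SE 0.12, adjusted p = 7.23e-08). Eomes, a factor of cytotoxic and memory T cells, had 57.5, 59.0 and 54.3 CPM in treated Treg cells, against 10.04, 8.35 and 5.87 CPM in control Treg cells (log2 fold change 2.81, SE 0.29, adjusted p = 4.9e-07). Ahr, the aryl hydrocarbon receptor, and Zbtb7b, the CD4 lineage factor ThPOK, rose by log2 fold changes of 1.44 and 1.08 (adjusted p = 0.00157 and 0.000306). Of 34 helper cytokines and effector molecules 9 higher and 2 lower were called (26.5% and 5.88%). Without treated Treg 1 the higher count was 5, without control Treg 2 it was 5 and without control Treg 3 it was 4. Gzmk, a granzyme, had 45.6, 45.9 and 42.8 CPM in treated Treg cells, against 4.88, 3.16 and 1.90 CPM in control Treg cells (log2 fold change 3.75, SE 0.40, adjusted p = 1.11e-06). Ccl5, a chemokine of memory T cells, had 82.2, 82.2 and 75.9 CPM in treated Treg cells, against 25.3, 25.5 and 28.4 CPM in control Treg cells (log2 fold change 1.601, SE 0.20, adjusted p = 6.45e-06). Ccl3 and Ccl4, inflammatory chemokines, were low in control and higher in treated libraries: Ccl3 had 15.8, 15.2 and 15.3 CPM in treated Treg cells, against 1.25, 1.71 and 0.579 CPM in control Treg cells (adjusted p = 0.0328). The call of Ccl3 was lost with any single library left out (adjusted p between 0.0644 and 0.151), and that of Ccl4 without treated 1 (adjusted p = 0.0598), treated 2 (adjusted p = 0.0646), treated 3 (adjusted p = 0.0631), control 2 (adjusted p = 0.14) or control 3 (adjusted p = 0.137). Nkg7, a cytotoxic granule protein, averaged 14.2 ± 0.432 CPM in treated and 0.900 ± 0.243 CPM in control Treg cells (SD, n = 3 each; log2 fold change 3.97, adjusted p = 0.000866). Tnfsf8, which encodes the CD30 ligand, fell by 0.92 on the log2 scale (adjusted p = 4.28e-06). Eomes and Nkg7 are also on the list of CD8 and NK cell markers, and they are its 2 members called higher. The list's summed level was 130.2 to 140.4 CPM in treated and 50.7 to 58.2 CPM in control Treg libraries, with 2 higher and 1 lower among 10 tested genes. Its defining gene Klrd1, an NK receptor chain, had 1.03, 0.568 and 0.821 CPM in treated Treg cells, against 3.01, 3.70 and 6.62 CPM in control Treg cells (log2 fold change -2.46, SE 0.69, adjusted p = 0.0282), and Cd8a and Ncr1 were too low to be tested. The call of Klrd1 was lost without treated 1 (adjusted p = 0.0792), treated 2 (adjusted p = 0.145), treated 3 (adjusted p = 0.112), control 2 (adjusted p = 0.0555) or control 3 (adjusted p = 0.129). Their part in the result was not tested.

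Cell division genes were prominent among the higher genes. Of 76 tested mitosis and spindle genes 44 were higher and none lower, with a median log2 fold change of 2.01, and 75 had a positive log2 fold change. Mki67, the proliferation marker Ki-67, had 907, 915 and 829 CPM in treated Treg cells, against 121, 115 and 90.1 CPM in control Treg cells (log2 fold change 3.02, SE 0.33, adjusted p = 1.53e-06). Top2a, topoisomerase II alpha, had 326, 327 and 319 CPM in treated Treg cells, against 66.2, 67.2 and 73.4 CPM in control Treg cells (log2 fold change 2.23, SE 0.10, adjusted p = 5.93e-13). Aspm, a protein of the spindle poles, had 74.9, 83.2 and 75.8 CPM in treated Treg cells, against 14.7, 9.99 and 12.03 CPM in control Treg cells (log2 fold change 2.67, SE 0.24, adjusted p = 1.11e-07). The treated libraries lay close together and far above the control libraries for all 3 genes. Summed, the list took 0.665, 0.666 and 0.652% of counts in treated and 0.268, 0.269 and 0.227% in control libraries (exact permutation test, two-sided p = 0.1, the smallest that 3 against 3 allows). Of 61 tested replication genes 19 were higher and none lower. Dnmt1, the maintenance DNA methyltransferase, had 313, 329 and 273 CPM in treated Treg cells, against 148, 135 and 121 CPM in control Treg cells (log2 fold change 1.18, SE 0.13, adjusted p = 1.62e-06), and Rrm2, a subunit of ribonucleotide reductase, had 86.0, 84.6 and 87.2 CPM in treated Treg cells, against 10.2, 18.5 and 11.9 CPM in control Treg cells (log2 fold change 2.66, SE 0.41, adjusted p = 0.000113). Of 58 tested replication-dependent histone genes 24 were higher and none lower, among them the linker histone gene Hist1h1d (log2 fold change 1.32, adjusted p = 8.1e-09), although reads of such near-identical genes may be split wrongly. The count of higher mitosis genes was 32 without treated Treg 3 and 29 without control Treg 3 (29 without control Treg 2), that of replication genes 17 without treated Treg 3 and 11 without control Treg 3, and that of histone genes 20 without treated Treg 3 and 19 without control Treg 3. None of the lower counts of 0 on these lists rose above 1 at an unadjusted p under 0.05, in DESeq2 or in limma voom. In the fit of the 6 Treg libraries the 3 counts of higher genes were 72, 49 and 54.

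Mitosis genes are commonly controlled through the CHR element of their promoters, so the promoter windows of the called mitosis genes with the smallest p that hold it are shown. Matches that end more than 30 bases after the gene start were left out, and the nearest to the start of the others was taken. The windows come from RefSeq promoters (GRCm38.p6). They reach up to 50 bases to either side of the match taken and end at most 30 bases after the gene start. They are Top2a at chr11:99024160-99024262 (minus strand), Aspm at chr1:139454729-139454802 (plus strand), Mki67 at chr7:135716422-135716527 (minus strand), Cdc25b at chr2:131186905-131186977 (plus strand). The matches start at -23, 6, -98 and 7 from the gene start. Each window is written 5′ to 3′ on the strand of its gene, with the match in capitals.
Top2a: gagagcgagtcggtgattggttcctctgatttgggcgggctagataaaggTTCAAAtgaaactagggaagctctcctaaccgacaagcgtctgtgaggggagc
Aspm: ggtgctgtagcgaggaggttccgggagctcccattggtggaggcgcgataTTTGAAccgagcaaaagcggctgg
Mki67: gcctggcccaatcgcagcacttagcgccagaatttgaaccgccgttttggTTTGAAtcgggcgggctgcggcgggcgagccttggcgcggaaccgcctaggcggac
Cdc25b: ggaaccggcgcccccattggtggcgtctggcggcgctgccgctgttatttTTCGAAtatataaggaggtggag
The letters searched were TTTGAA and TTCGAA on both strands. They were found in 49 of 71 promoters of the mitosis list (69.0%), which belong to 65 of its 76 genes, and in 6316 of 32851 promoters in all (19.2%), and 29 of the 44 higher members hold one. A match describes the letters and shows no binding.

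Replication genes are known targets of E2F factors, and the windows of 4 higher members with an E2F match are shown in the same way. They are Dnmt1 at chr9:20952785-20952873 (minus strand), Mcm3 at chr1:20820283-20820343 (minus strand), Uhrf1 at chr17:56304078-56304185 (plus strand), Pola1 at chrX:93632236-93632343 (minus strand), with matches that start at -219, 19, -185 and -138 from the gene start. Capitals mark the match.
Dnmt1: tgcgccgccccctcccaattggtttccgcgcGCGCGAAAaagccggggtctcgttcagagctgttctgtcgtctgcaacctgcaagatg
Mcm3: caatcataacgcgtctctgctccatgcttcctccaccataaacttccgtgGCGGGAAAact
Uhrf1: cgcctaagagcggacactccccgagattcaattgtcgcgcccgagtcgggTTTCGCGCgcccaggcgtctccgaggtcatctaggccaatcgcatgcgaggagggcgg
Pola1: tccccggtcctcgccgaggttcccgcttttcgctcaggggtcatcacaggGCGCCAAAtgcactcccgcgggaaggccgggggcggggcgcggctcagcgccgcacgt
The letters searched were TTTCGCGC, TTTGGCGC, TTTCCCGC and TTTGCCGC on both strands. They occurred in 18 of 55 promoters of the replication list (32.7%) and in 744 of all 32851 (2.26%). Pola1, the catalytic subunit of DNA polymerase alpha, averaged 104 ± 1.36 CPM in treated and 41.3 ± 5.59 CPM in control Treg cells (SD, n = 3 each; log2 fold change 1.33, adjusted p = 0.00076). Uhrf1, a partner of Dnmt1 at replication forks, averaged 86.0 ± 5.38 CPM in treated and 21.9 ± 0.576 CPM in control Treg cells (SD, n = 3 each; log2 fold change 1.98, adjusted p = 0.0003), and Mcm3, a subunit of the replicative helicase, 171 ± 12.6 CPM in treated and 80.1 ± 7.68 CPM in control Treg cells (SD, n = 3 each; log2 fold change 1.09, adjusted p = 2.29e-06).

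Messages of the mitochondrial genome were lower and those of glycolysis higher. Of 13 tested mitochondrially encoded mRNAs 12 were lower and none higher, with a median log2 fold change of -2.45. The mitochondrial genome took 1.95, 1.85 and 2.20% of counts in treated Treg libraries, against 11.3, 11.3 and 9.65% in control Treg libraries (exact permutation test, two-sided p = 0.1, the smallest possible here). mt-Nd4, a subunit of complex I, had 1263, 1191 and 1342 CPM in treated Treg cells, against 8828, 8684 and 8756 CPM in control Treg cells (log2 fold change -2.79, SE 0.10, adjusted p = 8.33e-14). mt-Co1, the core of cytochrome oxidase, had 7129.8, 6575 and 7929 CPM in treated Treg cells, against 46173, 47386 and 46370.0 CPM in control Treg cells (log2 fold change -2.69, SE 0.12, adjusted p = 1.52e-12). The gap between the groups was over 4-fold for each of these genes. Values of mt-Co2, mt-Co3 and mt-Atp6 are uncertain, since near-identical nuclear copies can share their reads. The nuclear subunits of the respiratory chain did not move with them. Of 57 tested, 3 higher and 1 lower were called (5.26% and 1.75%, against 5.17% and 3.56% of all genes). Their median log2 fold change was 0.11. Treated libraries of the other sorted subsets lay between 2.18 and 3.17% mitochondrial counts and their control libraries between 9.50 and 16.9%. The labels give no batch, so treatment and any difference in handling between treated and control samples cannot be told apart.

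Of 23 tested glycolysis genes 14 were higher and none lower, with a median log2 fold change of 0.71, and 13 were higher without treated Treg 3 as well as without control Treg 3. Tpi1, triose phosphate isomerase, had 191, 201 and 165 CPM in treated Treg cells, against 42.0, 42.7 and 41.8 CPM in control Treg cells (log2 fold change 2.14, SE 0.25, adjusted p = 2.88e-06). Hk2, the inducible hexokinase, had 49.9, 55.6 and 47.0 CPM in treated Treg cells, against 14.9, 11.9 and 11.1 CPM in control Treg cells (log2 fold change 2.00, SE 0.27, adjusted p = 1.91e-05). Ldha, lactate dehydrogenase, rose by a log2 fold change of 0.87 (adjusted p = 1.48e-05), and Pgk1 and Pgam1, enzymes of the lower pathway, by 0.92 and 1.31 (adjusted p = 0.000355 and 2.61e-05). At an unadjusted p under 0.05 and in DESeq2 no glycolysis gene was lower and no mitochondrial mRNA higher, and limma voom called 1 glycolysis gene lower.

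**Figure D4:**
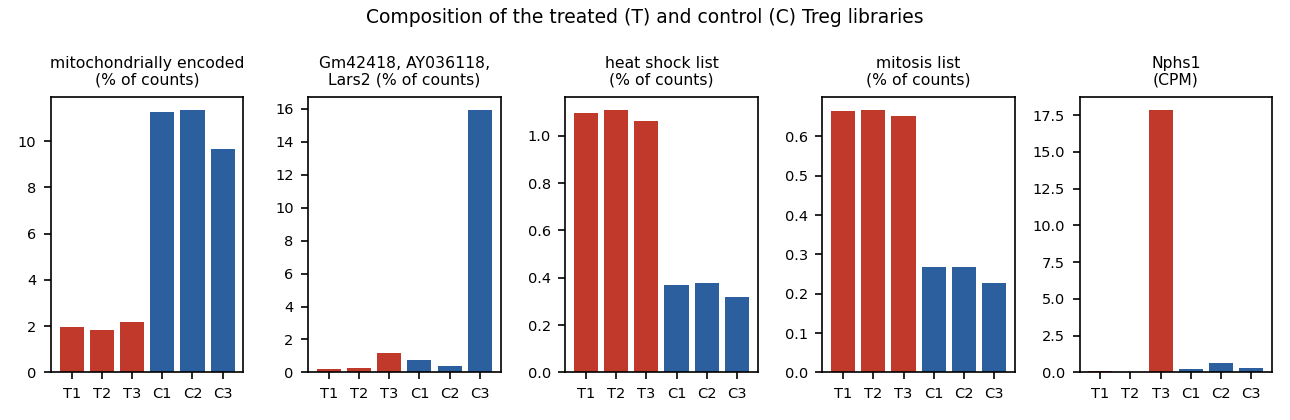
Bars give, for treated Treg libraries 1 to 3 (red) and control Treg libraries 1 to 3 (blue), the percent of counts of the mitochondrial genome, of Gm42418, AY036118 and Lars2, of heat shock genes and of mitosis genes, and the CPM of Nphs1. The mitochondrial share is at most 2.20% in the treated libraries, control 3 stands apart in the second panel, and treated 3 in the last.

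Immediate early genes, which answer signals and stress within minutes, were more often higher than lower. Of 30 tested members 15 higher and 3 lower were called, with a median log2 fold change of 0.65. Fos, a subunit of AP-1, had 1544, 1526 and 1399.7 CPM in treated Treg cells, against 176, 169 and 155 CPM in control Treg cells (log2 fold change 3.16, SE 0.16, adjusted p = 1.01e-11). Fosb, its relative, had 796, 774 and 737 CPM in treated Treg cells, against 139.6, 131 and 117 CPM in control Treg cells (log2 fold change 2.57, SE 0.17, adjusted p = 9.24e-10). Jun, their partner, averaged 1745 ± 153 CPM in treated and 662 ± 42.7 CPM in control Treg cells (SD, n = 3 each; log2 fold change 1.397, adjusted p = 7.6e-08). Fosl2, another Fos protein, went the other way with 164, 165 and 157 CPM in treated Treg cells, against 623, 627 and 602 CPM in control Treg cells (log2 fold change -1.93, SE 0.12, adjusted p = 1.6e-10). Of 20 tested heat shock genes 13 were higher and none lower, with 13 without treated Treg 3 and 12 without control Treg 3. Hsph1, a cochaperone of the HSP70 system, had 727, 729.5 and 693 CPM in treated Treg cells, against 83.8, 87.4 and 88.2 CPM in control Treg cells (log2 fold change 3.05, SE 0.22, adjusted p = 1.87e-09). Hspa1b, an inducible HSP70, had 1170.4, 1176 and 1017 CPM in treated Treg cells, against 192, 183 and 167 CPM in control Treg cells (log2 fold change 2.63, SE 0.12, adjusted p = 2.15e-12). Dnajb1, its J-domain partner, rose by a log2 fold change of 1.70 (adjusted p = 1.08e-08). No heat shock gene was lower at an unadjusted p under 0.05, in DESeq2 or in limma voom. The heat shock genes took 1.10, 1.11 and 1.06% of counts in treated and 0.371, 0.377 and 0.317% in control libraries (exact permutation test, two-sided p = 0.1, the smallest possible here). Control libraries of the other sorted subsets lay between 0.308 and 0.609%, and all their treated libraries were higher, up to 2.10%. Summed immediate early genes likewise had 5977 to 9033 CPM in those control libraries and 10127.5 to 25539.8 CPM in the treated ones. Both lists also moved with the mitochondrial share of counts, whose part in the result was not tested. As for that share, treatment and any difference in handling between treated and control samples cannot be told apart.

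Heat shock genes are driven by HSF1 through heat shock elements, and windows of 4 higher members that hold its core are shown, on RefSeq promoters of GRCm38.p6. They are Hspa1b at chr17:34959285-34959392 (minus strand), Hspa1a at chr17:34972203-34972310 (minus strand), Hspd1 at chr1:55088014-55088121 (minus strand), Dnaja1 at chr4:40722294-40722401 (plus strand), with matches at -104, -104, -139 and -124. The windows of Hspa1a and Hspa1b are the same letter for letter, and reads of their near-identical messages may likewise be split wrongly.
Hspa1b: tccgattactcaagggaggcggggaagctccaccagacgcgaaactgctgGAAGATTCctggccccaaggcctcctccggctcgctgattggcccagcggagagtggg
Hspa1a: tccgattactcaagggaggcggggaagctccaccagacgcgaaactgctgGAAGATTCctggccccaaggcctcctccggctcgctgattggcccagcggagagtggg
Hspd1: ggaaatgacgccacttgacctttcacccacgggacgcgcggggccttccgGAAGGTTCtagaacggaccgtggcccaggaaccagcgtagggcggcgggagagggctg
Dnaja1: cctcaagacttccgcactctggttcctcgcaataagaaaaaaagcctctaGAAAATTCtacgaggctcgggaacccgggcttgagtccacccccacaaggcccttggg
The letters searched were GAANNTTC, which reads the same on both strands, and the match is in capitals. They were found in 11 of 22 promoters of the heat shock list and in 7.86% of all promoters. Hspa1a had 1133, 1172 and 992 CPM in treated Treg cells, against 169, 182 and 188 CPM in control Treg cells (log2 fold change 2.61, SE 0.18, adjusted p = 7.8e-10), and Hspd1, the mitochondrial HSP60, averaged 268 ± 11.1 CPM in treated and 112 ± 7.16 CPM in control Treg cells (SD, n = 3 each; log2 fold change 1.26, adjusted p = 2.15e-07). Dnaja1, a cochaperone of HSP70, averaged 656 ± 21.5 CPM in treated and 221 ± 5.78 CPM in control Treg cells (SD, n = 3 each; log2 fold change 1.57, adjusted p = 4.12e-07). For the immediate early list the CRE letters TGACGTCA stood in 3 of 30 promoters, against 1.79% of all promoters.

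Interferon response genes, which are raised in many patients with lupus, were higher in part. Of 40 tested members 12 were higher and none lower in edgeR, with a median log2 fold change of 0.70; limma voom called 1 lower, and DESeq2 and an unadjusted p under 0.05 gave 0. The count depended on the libraries: it was 5, 5 and 9 without treated Treg 1, 2 and 3 and 7, 5 and 5 without control Treg 1, 2 and 3. Ly6a, which encodes Sca-1, had 83.8, 80.3 and 80.0 CPM in treated Treg cells, against 35.9, 27.9 and 26.3 CPM in control Treg cells (log2 fold change 1.44, SE 0.27, adjusted p = 0.000853). Ifih1, the RNA sensor MDA5, had 110.5, 114 and 104 CPM in treated Treg cells, against 49.6, 49.1 and 44.6 CPM in control Treg cells (log2 fold change 1.20, SE 0.24, adjusted p = 0.00174), and Zbp1, a nucleic acid sensor of cell death, averaged 97.9 ± 9.59 CPM in treated and 47.8 ± 3.73 CPM in control Treg cells (SD, n = 3 each; log2 fold change 1.03, adjusted p = 0.00337). The interferon-stimulated response element core, GAAANNGAA on either strand, stood in 20 of 34 promoters of the list and in 8.56% of all promoters.

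Several of the genes with the largest changes are on none of the pathway lists. Scin, the actin-severing protein scinderin, had 118, 111 and 107 CPM in treated Treg cells, against 5.13, 7.45 and 3.06 CPM in control Treg cells (log2 fold change 4.42, SE 0.40, adjusted p = 2.45e-07). Dscam, a neuronal adhesion molecule, had 95.2, 97.3 and 83.5 CPM in treated Treg cells, against 2.90, 3.89 and 3.93 CPM in control Treg cells (log2 fold change 4.69, SE 0.72, adjusted p = 0.00011). Hapln1, a link protein of hyaluronan matrix, averaged 5.30 ± 0.605 CPM in treated and 0.296 ± 0.116 CPM in control Treg cells (SD, n = 3 each; log2 fold change 4.14, adjusted p = 0.00285). In all treated libraries these genes were more than 5-fold above every control library. They were picked as large changes with groups that do not overlap, so this gap is no further support. On the other side, Col24a1, a collagen chain, had 0.420, 0.391 and 0.459 CPM in treated Treg cells, against 10.7, 16.2 and 9.39 CPM in control Treg cells (log2 fold change -4.83, SE 1.02, adjusted p = 0.00316). Pde3b, a phosphodiesterase that breaks down cyclic AMP, had 14.9, 13.4 and 17.2 CPM in treated Treg cells, against 136, 115 and 128 CPM in control Treg cells (log2 fold change -3.06, SE 0.17, adjusted p = 2.84e-11). Ramp3, a partner of the calcitonin-like receptor, had 67.6, 73.7 and 63.7 CPM in treated Treg cells, against 376, 404 and 399 CPM in control Treg cells (log2 fold change -2.52, SE 0.12, adjusted p = 4.85e-12). Kctd12, an auxiliary subunit of GABA-B receptors, and Plaur, the urokinase receptor, fell by 2.66 and 2.60 on the log2 scale (adjusted p = 2.14e-05 and 3.91e-06). Cap2, an actin regulator, fell by 3.44 (adjusted p = 0.0148), a call lost without treated 1 (adjusted p = 0.0632), treated 2 (adjusted p = 0.0834) or treated 3 (adjusted p = 0.0695).

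Transcripts of immunoglobulin chains and of Cd74 were higher in treated Treg libraries. Ighm, the constant region of IgM, had 753, 777 and 693 CPM in treated Treg cells, against 197, 178 and 166 CPM in control Treg cells (log2 fold change 2.04, SE 0.12, adjusted p = 4.25e-11). Igkc, the kappa light chain, had 163, 163 and 142 CPM in treated Treg cells, against 40.0, 35.3 and 39.2 CPM in control Treg cells (log2 fold change 2.03, SE 0.15, adjusted p = 5.67e-09). Cd74, the invariant chain of MHC class II, had 196, 210.1 and 182 CPM in treated Treg cells, against 72.7, 66.3 and 67.3 CPM in control Treg cells (log2 fold change 1.51, SE 0.16, adjusted p = 8.7e-07). Of 7 tested MHC class II presentation genes 2 were called higher, Cd74 and H2-Ab1, and the count was 1 with any library but control Treg 2 left out. Genes that define B and plasma cells stayed low: Ms4a1 averaged 0.146 ± 0.102 CPM in treated and 0.770 ± 0.765 CPM in control Treg cells and Mzb1 0.282 ± 0.0632 CPM in treated and 0.289 ± 0.501 CPM in control Treg cells (SD, n = 3 each). Of 14 tested B cell genes 1 was higher, Cd22 (7.14%, against 5.17% of all genes). The call of Cd22 was lost with any single library left out (adjusted p between 0.0575 and 0.137). The B cell list summed to 55.0 to 56.1 CPM in treated and 19.97 to 23.0 CPM in control Treg libraries. Most of this gap came from Cd22, which averaged 36.6 CPM in treated and 3.77 CPM in control Treg cells. The median log2 fold change of the B cell list was -0.58, with a positive value for 6 of its 14 tested genes. Of 13 tested plasma cell genes 5 higher and 1 lower were called, all but Jchain and Xbp1 being immunoglobulin constant regions, and the list summed to 1236 to 1362 CPM in treated and 680.4 to 725 CPM in control Treg libraries. Jchain, which joins IgM and IgA chains, rose by a log2 fold change of 1.57 (adjusted p = 0.000133). The part of B lineage RNA in these results was not tested.

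The treatment effect in Treg cells was set against that in conventional CD4 cells (Tconv, CD4+CXCR5-GITR-) of the same treatment groups, by the difference of the log2 fold changes. It was higher in Treg cells for 166 genes (0.883%) and lower for 338 (1.80%) of 18789 (2.68% in all), or for 172 and 184 with scaling that left out mitochondrial, haemoglobin, immunoglobulin and receptor-segment genes. Control Tconv 1 and 2 hold kidney transcripts, at 156 and 163 CPM of Nphs1, and without these and treated Treg 3 the counts were 13 and 83, a fit in which control Tconv is a lone library assumed to vary like the other groups. Pdcd1 fell in Treg cells and averaged 9.61 ± 1.003 CPM in treated and 5.17 ± 1.86 CPM in control Tconv cells (SD, n = 3 each; difference -2.51 (log2), SE 0.23, adjusted p = 9.49e-07). Ccr7 averaged 1081 ± 40.9 CPM in treated and 1218 ± 193 CPM in control Tconv cells (SD, n = 3 each; difference -1.88 (log2), SE 0.15, adjusted p = 1.89e-07). Satb1 likewise fell further in Treg cells (difference -1.57 (log2), SE 0.13, adjusted p = 2.91e-07). Without the kidney libraries these 3 differences had adjusted p-values of 0.000111, 7.28e-05 and 0.000123. Ctla4, which did not pass in Treg cells, averaged 103 ± 6.35 CPM in treated and 35.8 ± 3.55 CPM in control Tconv cells (SD, n = 3 each; difference -1.41 (log2), SE 0.12, adjusted p = 5e-07). Hist1h1d, a linker histone, averaged 37.4 ± 2.20 CPM in treated and 45.8 ± 0.994 CPM in control Tconv cells (SD, n = 3 each) and rose more in Treg cells (difference 1.62 (log2), SE 0.14, adjusted p = 6.02e-07).

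Over all tested genes the effect was lower in Treg than in Tconv cells for 1.80% and higher for 0.883%, the background of the counts that follow. Of 22 naive and recirculation genes the effect was lower in Treg than in Tconv cells for 12 and higher for 1. Of 30 immediate early genes it was lower for 13 and higher for none (0 at an unadjusted p under 0.05 and in DESeq2, 1 in limma voom). Without the kidney libraries 4 and 7 were past the threshold in that direction. Of 39 T cell receptor signalling genes 13 had a lower effect in Treg cells, or 4 without those libraries. Of 76 mitosis genes 7 had a higher effect in Treg cells, and none did without the kidney libraries, where 13 had an unadjusted p under 0.05, while on all libraries DESeq2 called 20 and limma voom 52. Among 35 tested Notch genes edgeR called no difference, with 5 higher and 4 lower at an unadjusted p under 0.05, 3 and 1 called by DESeq2 and 9 and 9 by limma voom. Dtx1 averaged 200.3 ± 12.3 CPM in treated and 48.1 ± 7.16 CPM in control Tconv cells (SD, n = 3 each; difference 0.43 (log2), SE 0.83, adjusted p = 0.957).

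**Figure D5:**
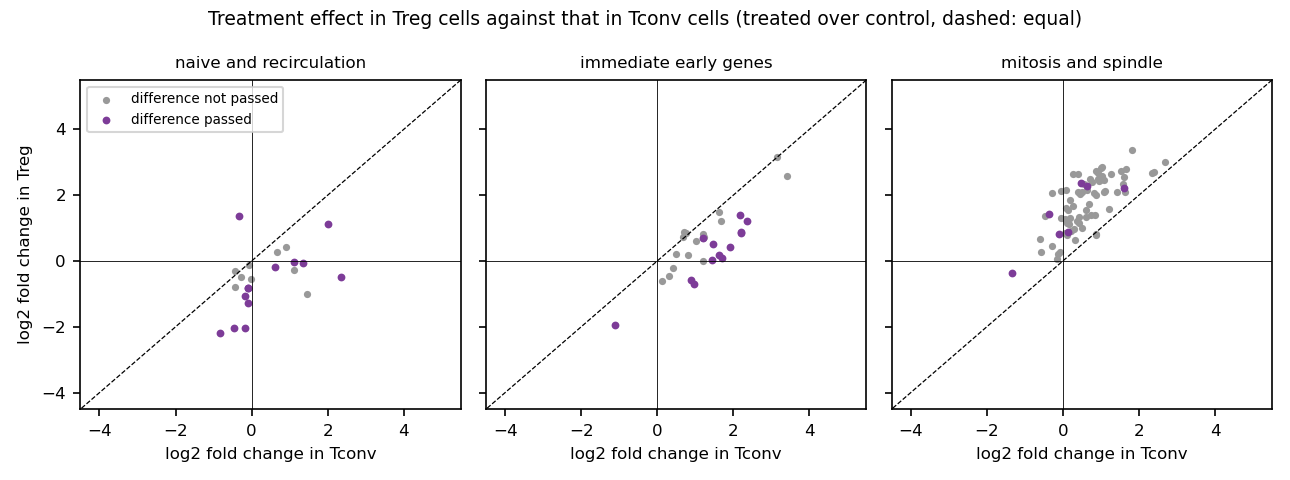
Each point is a tested gene of 1 of 3 lists, with the log2 fold change of treated over control in Tconv cells on the x axis and in Treg cells on the y axis. Purple points differ between the cell types past the test, and the dashed line marks equal effects. Purple points of the immediate early list lie below the line.

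Against follicular regulatory cells (TFR, CD4+CXCR5+PD1Hi GITRHi), which also express Foxp3, the treatment effect was higher in Treg cells for 424 genes (2.26%) and lower for 984 (5.24%), 7.49% in all, and for 171 and 345 without the libraries with kidney transcripts (treated TFR 1 and treated Treg 3). The control TFR libraries held only 9.62, 8.52 and 4.85 M counts. Satb1 averaged 134 ± 7.18 CPM in treated and 148 ± 19.6 CPM in control TFR cells (SD, n = 3 each), so its fall was larger in Treg cells (difference -1.90 (log2), SE 0.13, adjusted p = 6.42e-08). Itga4 averaged 661 ± 36.6 CPM in treated and 662 ± 45.5 CPM in control TFR cells (SD, n = 3 each), and its rise was larger in Treg cells (difference 1.55 (log2), SE 0.15, adjusted p = 3.25e-06). Btla, at 51.9 ± 2.21 CPM in treated and 52.8 ± 4.90 CPM in control TFR cells (SD, n = 3 each), differed in the same way (difference 1.67 (log2), SE 0.21, adjusted p = 5.37e-05). Ikzf2 averaged 983 ± 70.6 CPM in treated and 999.7 ± 8.03 CPM in control TFR cells (SD, n = 3 each; difference 0.91 (log2), SE 0.16, adjusted p = 0.00157). Ccl5 averaged 245 ± 9.22 CPM in treated and 9.05 ± 3.49 CPM in control TFR cells (SD, n = 3 each) and rose less in Treg cells (difference -3.14 (log2), SE 0.29, adjusted p = 1.6e-06). Lag3 averaged 118 ± 12.2 CPM in treated and 25.7 ± 4.04 CPM in control TFR cells (SD, n = 3 each; difference -2.13 (log2), SE 0.29, adjusted p = 0.000121). All 6 differences passed without the kidney libraries too, with adjusted p-values between 1.27e-06 and 0.0168. Of 58 histone genes 15 had a lower effect in Treg than in TFR cells, against 984 of all 18789 genes (5.24%). Without the kidney libraries 5 did, against 345 of all 19442 genes.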

How the data were processed

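RNA from sorted cells was counted per gene in 24 libraries, and the 6 Treg libraries were grouped by their titles. The whole-number counts were deposited by the authors as 1 table of 39056 genes, not normalised. Reads were aligned with STAR and counted with featureCounts on mm10, per the submitters' processing notes. The versions, the annotation, the strand setting and whether molecular identifiers were used were not given in the sources used here. Gene names came from a GENCODE annotation of GRCm38 for 38872 IDs, and 184 IDs stayed unmatched.

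Differences were computed by edgeR 4.0.16 under R 4.3.3 (filterByExpr, TMM scaling, quasi-likelihood test with Benjamini-Hochberg adjustment, threshold 0.05) with a mean for each of 8 groups over all 24 libraries, and differences of effects as interaction contrasts in the same fit. Log2 fold changes are treated over control, and CPM uses the TMM-scaled library size. limma voom (limma 3.58.1), DESeq2 1.42.0 and other scalings, filters and library sets were alternatives. Counts were simulated with 100 genes changed per fold size, all with a mean of at least 10 CPM in Treg cells. The test returned 51% of these Treg changes at a log2 fold of 1 and 86% at 2, with 6 false calls among 18181 genes. The 6 false calls stand beside 51 and 86 changed genes recovered. Recovery of genes below 10 CPM was not measured. The counts were drawn from the spread that the model itself had fitted, so outlying libraries and differences in handling were not covered. Shares of counts were compared by exact permutation tests, and their 95% Wilson intervals reach at most 0.0135 percentage points to either side. Such intervals cover counting error only.

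Named genes were the 15 largest changes per direction with groups that do not overlap and at least 5 CPM, the 6 members with the smallest p of each list, all members of 6 lists, a set of genes by name, and 6 genes per direction of each difference of effects. Pola1, Hspd1 and Dnaja1 were added for their promoter sequences, and Ms4a1, Mzb1, Lyz2 and Csf1r as checks of cell type. The comparison, the gene lists and the named genes were chosen with earlier results of these data known. A few of the genes so chosen are not reported here. Reads of genes that overlap another gene may be shared with it, which touches Foxp3, Ikzf2, Nrp1, Tnfrsf18, Gpr15, Rora, Maf, Gata3, S100a4, Ebi3, Bach2, Satb1, Foxp1, Lef1, Foxo1, Top2a, Cdc25b, Tpi1, mt-Nd4, mt-Co1, Jun, Map3k14, Nfkb2, Traf5, Notch1, Notch2, Maml1, Stat5a, Stat3, Pim1, Jak3, Lcp2, Cxcr5, Itga4, Bcl6, Eomes, Ahr, Zbtb7b, Cap2, Ramp3, Kctd12, Dscam, Cd74, Cd22, Ccnd2, Hspa1a, Hsp90b1, Rbl2 and Cyp51. Promoters are RefSeq windows of GRCm38.p6. The lowest chi-square per degree of freedom between counts of replicates was 4.70, between treated Treg 1 and 2, so no libraries were merged. Against treated Treg 3 these 2 libraries had 35.8 and 39.4.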

Additional observations from a re-analysis of the deposited data

Results flagged for a closer look

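The treatment effect differed between Treg and Tconv cells for 504 genes and between Treg and TFR cells for 1408 genes, tested as an interaction in edgeR's quasi-likelihood test, which is what marked these results. The 6 genes named for a lower effect in Treg than in Tconv cells were Mmp10, Ifng, Tnfsf8, Il10, Il21 and Igfbp4. Ifng, interferon gamma, averaged 46.6 ± 0.837 CPM in treated and 27.5 ± 2.59 CPM in control Treg cells, and 42.8 ± 0.713 CPM in treated and 2.10 ± 1.07 CPM in control Tconv cells (SD, n = 3 each; difference -3.57 on the log2 scale, adjusted p = 1.98e-06, or 0.000347 without the libraries that hold kidney transcripts). Tnfsf8, the CD30 ligand, averaged 223 ± 3.45 CPM in treated and 422 ± 18.2 CPM in control Treg cells, and 94.8 ± 5.66 CPM in treated and 21.9 ± 2.84 CPM in control Tconv cells (SD, n = 3 each; difference -3.03, adjusted p = 2e-10, or 3.23e-07 without those libraries). Il10 averaged 56.5 ± 2.41 CPM in treated and 100.3 ± 7.98 CPM in control Treg cells, and 8.44 ± 0.620 CPM in treated and 1.92 ± 0.513 CPM in control Tconv cells (SD, n = 3 each; difference -2.97, adjusted p = 1.95e-05, or 0.000715). Igfbp4, a binding protein of insulin-like growth factors, averaged 6.79 ± 0.888 CPM in treated and 9.53 ± 2.26 CPM in control Treg cells, and 428 ± 14.4 CPM in treated and 83.7 ± 13.2 CPM in control Tconv cells (SD, n = 3 each; difference -2.84, adjusted p = 5.87e-05, or 0.00997). Il21, a cytokine of follicular helper cells, and Mmp10, a matrix protease, had differences of -2.85 and -5.23 (adjusted p = 0.00108 and 0.0219), which did not pass without the kidney libraries (adjusted p = 0.155 and 0.114).

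The 6 genes named for a higher effect in Treg than in Tconv cells were high in the libraries that hold kidney transcripts. Gpx3, glutathione peroxidase 3, had 0.286, 0.231 and 42.8 CPM in treated and 0.0733, 0.0726 and 0 CPM in control Treg libraries, and 0.227, 0.208 and 0.195 CPM in treated and 365, 428 and 0.254 CPM in control Tconv libraries (adjusted p = 0.0468). Plxna2, Tbx3, Tjp1, Ednrb and Bcam had adjusted p-values of 0.0353, 0.0493, 0.039, 0.0433 and 0.0353, with the same 3 libraries high. Without treated Treg 3 and control Tconv 1 and 2 none of the 6 passed (adjusted p = 1.0 each), and no fold is given for them.

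Against TFR cells, 5 of the genes named here had no read in the control TFR libraries, the shallowest of the 4 groups, so no fold is given. Ret, a receptor tyrosine kinase, had 9.73, 10.6 and 9.15 CPM in treated and 3.12, 1.27 and 0.0827 CPM in control Treg libraries, and 22.6, 28.2 and 28.7 CPM in treated and 0, 0 and 0 CPM in control TFR libraries (adjusted p = 0.0256, or 0.08 without the kidney libraries). Igfbp4, Il12rb2, Rgmb and Hist2h2ab had adjusted p-values of 1.29e-06, 0.00684, 0.000961 and 0.000105. In the other direction, Stx17, a syntaxin of autophagosomes, averaged 19.9 ± 1.35 CPM in treated and 9.36 ± 1.43 CPM in control Treg cells, and 8.83 ± 1.68 CPM in treated and 25.7 ± 9.71 CPM in control TFR cells (SD, n = 3 each; difference 2.63, adjusted p = 0.000938). Traj21, Cnrip1, Olig2 and Dgki had differences of 2.73, 2.53, 2.23 and 2.23 (adjusted p = 0.018, 0.0403, 0.0161 and 0.0383), and none of these 4 passed without the kidney libraries, where their adjusted p-values lay between 0.0836 and 0.177.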

How the results depend on the processing

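Of 148 named genes called for the treatment effect in Treg cells, 126 passed under every alternative that gave a value and none reversed. Many of these genes were picked for a small p or a large change in the same data, so they do not stand for all calls. Of all 1640 calls, 64.5 to 66.4% were called again with 1 Treg library left out. The count of 1640 calls became 2753 with DESeq2, 6500 with limma voom, 984 without all libraries that hold kidney transcripts, 1093 without treated Treg 3 as the single such library among the groups compared, 6190 on the 6 Treg libraries alone and 6110 there with a replicate block, and 1062 to 1119 with 1 library left out. The count of 504 differences from Tconv cells became 1223 without a low-count filter, 1458 with DESeq2, 6980 with limma voom, 108 without all kidney libraries, 96 without those of the groups compared, 3157 on these groups alone and 2088 there with a replicate block. It was 239 to 1163 with 1 library left out; each omission moved it by over 1.5 times, to 239 to 312 except for 1163 (621 higher and 542 lower) without control Tconv 3. The count of 1408 differences from TFR cells became 864 without a filter, 2593 with DESeq2, 430 without all kidney libraries, 516 without those of the groups compared, 2446 on these groups alone and 797 to 1668 with 1 library left out; it moved by over 1.5 times without treated Treg 1, 2 or 3 (806, 857 and 797) or treated TFR 2 or 3 (875 and 814). The cause of these shifts was not tested.

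Reversals were found for genes that had not passed and for 1 kidney gene. Nt5e had log2 fold changes of 0.049 with scaling that left out mitochondrial, haemoglobin, immunoglobulin and receptor genes and -0.071 to 0.003 with 1 Treg library left out, reversed without control Treg 1. Hes1 had -0.306 without all kidney libraries and -0.311 to 2.876 with 1 library left out, reversed without treated Treg 3 (-0.311), which is also the fit without the kidney libraries compared. Rbpj had -0.008 among genes of at least 10 CPM, -0.022 on the 6 libraries with or without a replicate block, and -0.003 to 0.051 with 1 library left out, reversed without control Treg 3. The difference of Ednrb from Tconv cells was -2.722 without all kidney libraries and -2.759 without those compared.

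Deviations of treated and control Treg libraries with the same replicate number were weakly correlated (r = 0.0548, 0.0310 and 0.109 over 8646 genes). Not every library correlated best with its own number. Whether a replicate number links libraries of different sorted subsets, such as Treg and Tconv, was not checked. With the replicate block 1480 genes were called in Treg cells, 373 for the difference from Tconv cells and 1119 for that from TFR cells. The planned omission of libraries by the sum of a podocyte list could not be run as written, since every library exceeds its limit, and the rule by Nphs1 over 10 CPM was chosen after seeing the data. Common variation over the 24 libraries (0.617, on 18789 genes) was above that of the 6 Treg libraries (0.212, on the 15126 genes of their own filter). On the 18789 genes it was 0.364 in treated Treg libraries alone and 0.403 in control Treg libraries alone. The control TFR libraries of 4.85 to 9.62 M counts limit the differences from TFR cells.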

Other observations

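Most genes of the unfolded protein response did not pass the test, yet a larger share was higher than among all genes. Of 25 tested members 6 were higher and 1 lower, against 5.17% and 3.56% of all genes, with a median log2 fold change of 0.15. Hspa5, the endoplasmic reticulum chaperone BiP, had 1207, 1198 and 1177 CPM in treated Treg cells, against 802, 806 and 766 CPM in control Treg cells (log2 fold change 0.59, SE 0.08, adjusted p = 1.13e-05). Hsp90b1, its partner GRP94, and Calr, which encodes calreticulin, rose by log2 fold changes of 0.80 and 0.61 (adjusted p = 1.18e-05 and 1.68e-06). Xbp1, the transcription factor of this response, averaged 94.5 ± 2.64 CPM in treated and 137 ± 2.84 CPM in control Treg cells (SD, n = 3 each; log2 fold change -0.54, adjusted p = 0.000308).

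Of 27 tested regulators of apoptosis 3 were higher and 1 lower (11.1% and 3.7%, against 5.17% and 3.56% of all genes). Bcl2l11, which encodes the death-promoting protein BIM, had 61.7, 62.7 and 57.6 CPM in treated Treg cells, against 192, 176 and 176 CPM in control Treg cells (log2 fold change -1.58, SE 0.18, adjusted p = 2.02e-06). Pmaip1, which encodes NOXA, and Birc2, an inhibitor of apoptosis, rose by log2 fold changes of 1.01 and 0.82 (adjusted p = 0.000919 and 0.00141).

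Of 18 tested brakes on the cell cycle 4 were higher (22.2%, against 5.17% of all genes) and 0 lower in edgeR over all 24 libraries. At an unadjusted p under 0.05, 4 were lower, with 2 lower in DESeq2 and 5 each in limma voom and the fit of the 6 Treg libraries. The higher count was 2 without treated Treg 1, treated Treg 2, control Treg 1 or control Treg 2. Btg2, an antiproliferative protein, averaged 402 ± 14.5 CPM in treated and 264 ± 6.85 CPM in control Treg cells (SD, n = 3 each; log2 fold change 0.61, adjusted p = 0.00443), and Rbl2, the pocket protein p130, 516 ± 13.1 CPM in treated and 400.2 ± 3.34 CPM in control Treg cells (SD, n = 3 each; log2 fold change 0.36, adjusted p = 0.0088). Of 26 tested cholesterol genes 2 were higher (7.69%, against 5.17% of all genes) and 0 lower. No cholesterol gene was lower in DESeq2, in limma voom or at an unadjusted p under 0.05. The fit of the 6 Treg libraries with a replicate block called 1 lower. Cyp51, an enzyme of cholesterol synthesis, had 61.2, 56.9 and 56.6 CPM in treated Treg cells, against 23.1, 26.7 and 28.2 CPM in control Treg cells (log2 fold change 1.16, SE 0.16, adjusted p = 2.34e-05), and Stard4, a sterol carrier, rose by a log2 fold change of 0.73 (adjusted p = 0.0121), a call lost without control 3 (adjusted p = 0.0556).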
